A study of Mus musculus with 2 samples.

Results

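The predicted genes described here carried placeholder names, either Gm with digits, given to mouse gene models that had no functional name, or LOC with digits, taken from a gene record number. The members were 1690 microarray probes with such a name, of 55676 non-control probes in all, and stood for 1450 names (1427 Gm probes and 263 LOC probes). They were chosen from the probe annotation by a rule that uses no measured value, though earlier results of these data were known. Of 2231 Gm and LOC probes, 1 had no usable spot, 377 stood for noncoding RNA records with the prefix NR_, and 163 others lay on chromosome X or Y, and these were left out. The comparison set held 23931 probes with a curated messenger RNA record (prefix NM_) and a named gene, also without X and Y.

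Regulatory T (Treg) cells, the CD4 T cells that hold immune responses in check, had been sorted from wild-type mice and from mice whose genotype is given as Nr4a-TKO, at an age of 5 weeks. The RNA of each genotype went onto 1 single-colour Agilent array. The labels state neither the sex and number of the mice, nor the sort markers, nor which part of an Nr4a gene was altered. There are no replicates, so each difference is between 2 arrays and carries only the scanner's own error. Levels are log2 signals less the 75th percentile of their array, and differences subtract the wild-type level from that of the array labelled Nr4a-TKO. Brightness depends on a probe's sequence as well as on its RNA, so levels of different probes are descriptions. In bulk RNA, fewer cells of a type and less RNA per cell cannot be told apart.

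All 5 T cell markers and all 5 Treg markers were detected, meaning well above background by the scanner's call, on each array. Their levels differed between the arrays, however. Foxp3, which encodes the master regulator of this lineage, stood at 1.54 in wild-type and -2.57 in the array labelled Nr4a-TKO, 17.2-fold lower, Ikzf2 was 3.07-fold and Ctla4 2.29-fold lower, while Il2ra and Tnfrsf18 were 1.31-fold and 1.48-fold lower. The 5 T cell markers were 1.28-fold to 1.48-fold lower. Of the markers of other cells, 4 of 4 granulocyte genes were detected in wild-type and 2 in the array labelled Nr4a-TKO. On both arrays 2 of 4 B cell genes and 3 of 4 CD8 and NK genes were detected. Of 4 myeloid genes 3 were detected in wild-type and 2 in the other. Among them Itgam stood at 3.55 and 3.45 and Csf1r at -0.13 and 0.09. Among the granulocyte genes Mpo stood at -1.59 and -4.54, 7.76-fold lower, S100a8 and S100a9 at -3.36 and -3.15 in wild-type and not above background in the other, and Elane at -0.02 and -0.09. The summed level of the granulocyte list was 0.61 and 0.01, and that of the Treg list 8.56 and 8.03. For the myeloid list the sum was 3.66 and 3.59, and for the CD8 and NK list 0.35 and -0.22. The part of these shifts in the differences of the predicted genes was not tested. Erythroid markers stood at 1 and 0 of 3, and stromal and epithelial markers at 2 and 3 of 4. Nr4a3 differed by -2.82, Nr4a1 by 0.06 and 2 Nr4a2 probes by 1.03 and 1.34, so the genotype is used as a label only. The spike-in controls, RNA added in equal amount, had a median difference of 0.27 over 9 probes, against 0.07 over all probes.

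Placeholder names cover several kinds of sequence. Some models are retrocopies, which arise when a messenger RNA is copied back into the genome, and many retrocopies of ribosomal protein genes are pseudogenes. Others belong to families duplicated in tandem, such as the zinc finger genes of the KRAB type, whose products bind DNA and repress transcription, or the gene family that fills the proximal end of mouse chromosome 14. A probe for such a gene can share much of its sequence with other genes, and RNA of any copy can then bind it.

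The probe sequences show how close that likeness is, and are printed as the array files give them, with positions on mm9. The first set was chosen because most of its probes were lower together in the array labelled Nr4a-TKO. Capitals mark the run of 41 bases common to the probes of the first 3 lines, and in the others the longest run shared with the Gm5796 probe. The probes lie at chr14:4139620-4139679, chr14:4976100-4976159, chr14:5269494-5269553, chr14:3503725-3503784 and chr14:7013224-7013283 on the plus strand, and at chr14:20418846-20418905 on the minus strand.
Gm5796: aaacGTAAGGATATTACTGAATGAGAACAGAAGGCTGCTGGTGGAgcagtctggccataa
Gm3264: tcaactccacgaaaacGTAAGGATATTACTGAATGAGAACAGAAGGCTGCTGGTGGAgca
Gm3317: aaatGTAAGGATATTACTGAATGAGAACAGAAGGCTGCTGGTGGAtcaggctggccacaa
Gm10413: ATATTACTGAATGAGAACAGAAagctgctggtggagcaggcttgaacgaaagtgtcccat
Gm10408: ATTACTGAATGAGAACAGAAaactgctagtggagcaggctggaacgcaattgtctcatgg
Gm5458: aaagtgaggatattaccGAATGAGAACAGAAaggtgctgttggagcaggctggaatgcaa

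The next set pairs the probes of Gm6404, a predicted gene, with those of Rpl34, which encodes a protein of the large ribosomal subunit. It shows a member whose probes could also bind the RNA of an abundant gene. Capitals mark the longest run shared within each pair, 38 bases in the first pair and 17 in the other. The Gm6404 probes lie at chr13:116944244-116944303 and chr13:116944184-116944243, and the Rpl34 probes at chr3:130429830-130431677 and chr3:130431671-130431730 on the minus strand.
Gm6404 first probe: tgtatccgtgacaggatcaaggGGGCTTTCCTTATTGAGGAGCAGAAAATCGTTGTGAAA
Rpl34 first probe: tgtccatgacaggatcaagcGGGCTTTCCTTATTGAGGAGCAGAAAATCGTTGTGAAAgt
Gm6404 other probe: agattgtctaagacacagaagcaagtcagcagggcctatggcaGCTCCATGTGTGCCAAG
Rpl34 other probe: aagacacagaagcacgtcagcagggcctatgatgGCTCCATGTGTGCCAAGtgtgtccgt

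A last set holds members whose probes carry a run that recurs elsewhere. Capitals mark, of the runs of 25 bases in the LOC100048345 probe, the one found in the most other probes. That probe lies at chr7:134507998-134508057. For Gm885 only 25 bases are given, part of a run of 39 shared with 1 probe of Exosc2, and for Gm14085 the run of 27 shared with the probe of Slc28a2.
LOC100048345: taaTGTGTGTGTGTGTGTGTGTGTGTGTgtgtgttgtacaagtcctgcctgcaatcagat
Gm885: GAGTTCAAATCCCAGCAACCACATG
Gm14085: AAGTTATATTGGAAACATGTGTGAATT

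A smaller share of predicted-gene probes than of named-gene probes was detected on each array. On the wild-type array 1019 of 1690 member probes (60.3%, exact binomial 95% interval 57.9 to 62.6) were well above background, against 73.8% of the named probes. On the array labelled Nr4a-TKO 972 members (57.5%) were, against 72.9%. The intervals cover counting only and treat probes as independent. On both arrays together 908 members (53.7%) were measured, 111 were above background in wild-type alone, 64 in the array labelled Nr4a-TKO alone, and 607 on neither. The median level was -4.07 in wild-type and -4.06 in the other, against -1.68 and -1.57 for named probes. Among probes measured on both arrays the members' wild-type median was -1.85 and that of named probes 0.72.

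**Figure D1:**
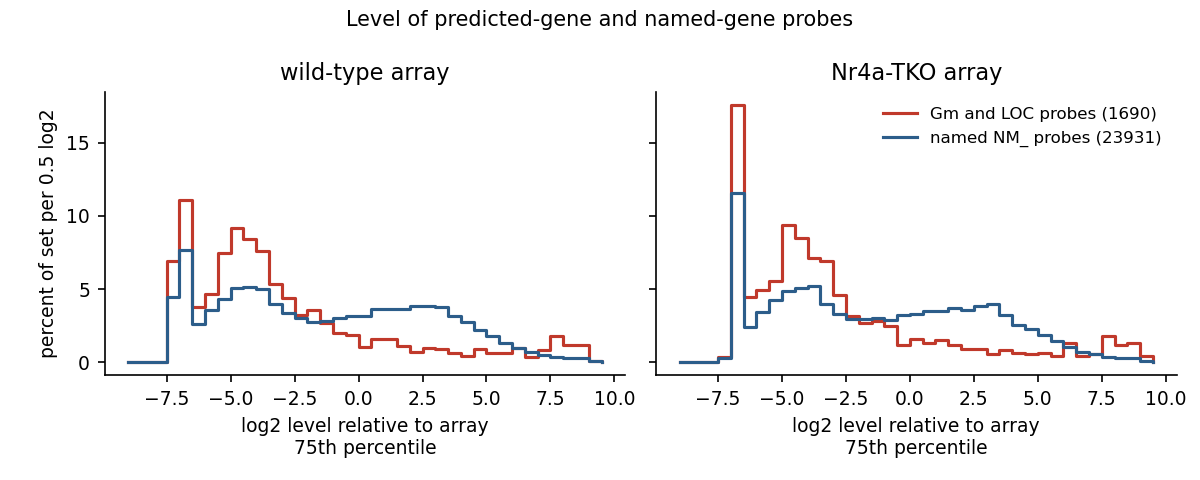
Distribution of probe levels (x axis, log2 signal less the array's 75th percentile) for members and named NM_ probes as a percentage of each set (y axis), in steps of 0.5, on the wild-type (left) and Nr4a-TKO (right) arrays. The members are concentrated at low levels, with a further small rise above 7.5 that the named probes lack.

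Members of different kinds stood at different levels. Through the RefSeq table, 1071 of 1690 member probes were matched to a current gene, and 619 were not. Of 174 members that the table now lists as pseudogenes, 86.2% were detected in wild-type, with a median level of 4.76 among the 146 measured on both arrays. Of 597 now listed as protein coding 57.5% were detected, and of 300 noncoding RNAs 44.7%, with medians of -1.89 and -2.74 among those measured. The intervals of these shares were 80.2 to 91.0, 53.4 to 61.5 and 39.0 to 50.5. They treat probes as independent, although several copies may bind the same RNA, so their lack of overlap is not a test. Over all probes 66.0% were detected in wild-type. LOC probes were detected in 73.8% of cases (68.0 to 79.0) and Gm probes in 57.8% (55.2 to 60.4).

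Ribosomal protein copies were among the bright members. Of 27 members whose description names a ribosomal protein, 24 were measured on both arrays, at a median of 7.58 in wild-type. Their differences ran from -0.14 to 0.59, with a median of 0.16 and an SD of 0.13, and none reached 2-fold. The 8 brightest names, taken by their brightest probe, lay above this class, and none of the 8 descriptions names a ribosomal protein. Gm8210 stood at 9.06 in wild-type and 9.19 in the array labelled Nr4a-TKO, and Gm10420 at 9.01 and 9.21, both pseudogenes in the current table. Gm12508, Gm6177, Gm13215 and Gm10923, likewise pseudogenes, and Gm14217, now Rpl5-ps2, lay between 8.86 and 8.99 in wild-type at that probe. Other probes of Gm13215 and Gm6177 stood at 8.26 and 7.94, and that of Gm12508 at -4.61. Gm13826, now Rpl37rt, stood at 8.79 and 8.98. The brightest probe of each of these 8 names was slightly higher in the array labelled Nr4a-TKO, by 0.13 to 0.20, and the combined scanner error of each difference was 0.20. Centring on the spike-ins takes 0.27 from every difference and so puts all 8 below 0, and the direction of differences this small depends on the scaling.

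Other bright members stood for housekeeping genes. LOC101056557, described as a glyceraldehyde-3-phosphate dehydrogenase copy of the glycolytic enzyme, stood at 8.62 and 8.87. LOC100861738, an elongation factor copy from the machinery of translation, stood at 6.99 and 7.22. Gm5506, now Eno1b and related to the glycolytic enolase, stood at 8.10 and 8.14 at its brighter probe. Gm2099, with a histone description, stood at 6.83 and 6.78. None of these 4 differed by more than 0.26. At the other end, 3 of 9 probes described as olfactory or vomeronasal receptors, genes of the sense of smell, were above background, and the 3 lay between -4.01 and -3.67 in wild-type.

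Probes that share sequence with a named gene's probe were set beside it. A run of at least 25 bases in common with a named NM_ probe was found for 54 members, a rule set after values had been seen, and 50 of them shared it with 1 or 2 named genes. These gave 42 probe pairs measured on both arrays. The absolute gap between the differences of a pair had a median of 0.11, below the median scanner error of a member's difference (0.21), and the direction was the same in 32 pairs. In the 9 pairs with a run of 40 bases or more, all had the same direction and the largest gap was 0.22. In the 33 with a shorter run, 23 had the same direction and the largest gap was 1.70. Across the 42 pairs Pearson's r of the differences was 0.61, a description, since the probes of a pair may bind the same RNA.

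Gm6404, printed above, stood at 8.56 in wild-type and 8.71 in the array labelled Nr4a-TKO at its first probe, and the Rpl34 probe with the 38-base run at 8.83 and 8.94. Gm11223 stood at 7.73 and 7.10, a difference of -0.63. It shares 53 bases with a probe of Stmn1, which encodes the tubulin-binding protein stathmin, and that probe stood at 7.78 and 7.15, also -0.63. A second Stmn1 probe, which does not share the run, stood at 6.76 and 6.95, higher by 0.19, so the direction at Gm11223 matched 1 of the 2 probes of the named gene. Gm9892 shares 55 bases with Eif2s2, a translation initiation factor, and both were higher, by 0.63 and 0.59. Gm9706 differed by 0.76 and Isg15, the interferon-induced ubiquitin-like protein with which it shares 35 bases, by 1.46.

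Some pairs differed more. Gm5093 stood at 3.48 and 2.56, a difference of -0.92, while the Rpl11 probe with a 27-base run in common stood at 9.06 on both arrays. Gm9758 differed by 0.78 and Speer4d, with 34 bases in common, by -0.59. The largest gap belonged to Gm14085 and Slc28a2, described with the lower members.

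**Figure D2:**
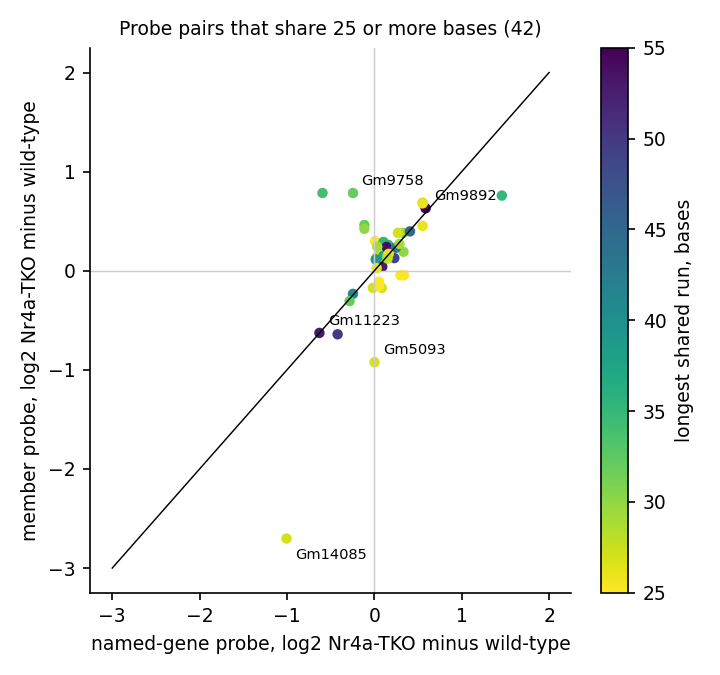
Differences (log2 Nr4a-TKO minus wild-type) of 42 probe pairs measured on both arrays that share at least 25 bases, with the named-gene probe on the x axis, the member probe on the y axis and the colour giving the length of the shared run; the line marks equal values. Most pairs lie close to the line, with Gm14085 and Gm5093 below it and Gm9758 above it.

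Some bright members carried repeat sequence. The run in capitals in LOC100048345 is found in 36 probes, which include the member Gm626, and the other 35 probes carry 35 different names. All 35 were measured on both arrays, at wild-type levels from 4.65 to 7.89, and their differences lay between -0.04 and 0.16. LOC100048345 stood at 7.61 and 7.69, within both ranges. Gm626, itself 1 of the 35, stood at 6.07 and 6.23. Gm885, now Milr1, a mast cell immunoglobulin-like receptor, had 3 probes at 8.78, 7.61 and 1.22 in wild-type. The brightest shares 39 bases with Exosc2, an RNA exosome subunit at 8.98, so the level given for Gm885 depended on the probe. The 3 differences of Gm885 were 0.11, 0.01 and 0.19.

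Between the arrays the members' differences centred near those of named genes. Above 0 were 537 members (59.1%), against 58.3% of all probes and 61.7% of named ones. The median difference of the 908 measured members was 0.08 (order-statistic 95% interval 0.06 to 0.11) with an SD of 0.54, against 0.09 and 0.56 for the 16880 named probes. At least 2-fold higher were 20 members, or 2.20%, and at least 2-fold lower 39, or 4.30%. Over all probes measured on both arrays the shares were 2.98% higher and 3.07% lower, and over named probes 4.0% and 2.57%. The members' share past 2-fold in either direction, 6.50%, was near the background of 6.05% and the 6.57% of named probes. Of the 39 lower probes, 16 lay in the first 10 Mb of chromosome 14; without that region 20 of 892 members were higher and 23 lower (2.58%). In all, 200 members (22.0%) differed by more than 2 times their combined scanner error, against 23.5% of all probes and 25.3% of named ones. The 59 probes past 2-fold were all among them. With errors of at most 0.37 in these 59, any 2-fold difference had to pass that size, so this adds no support.

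**Figure D3:**
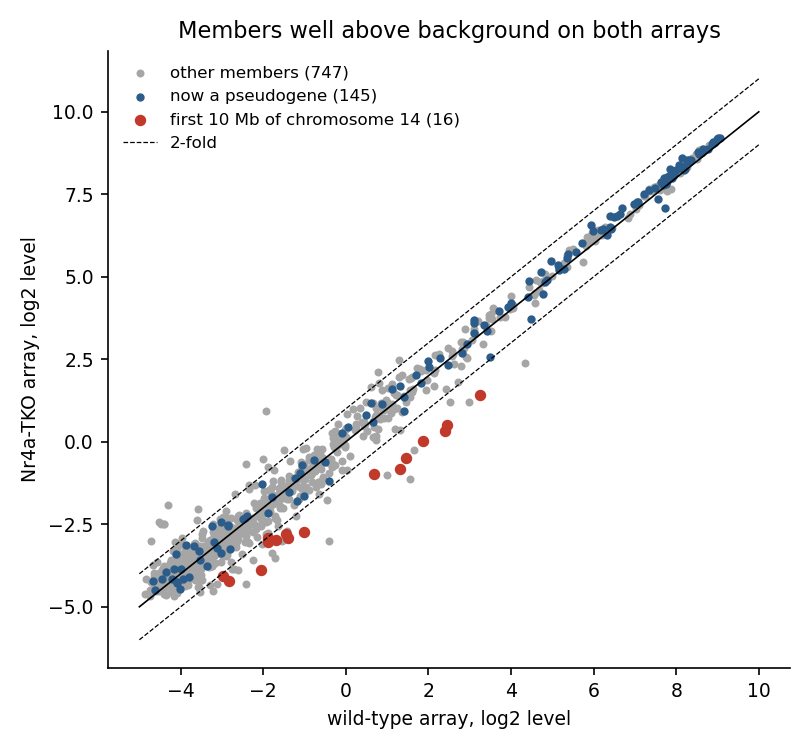
Level on the Nr4a-TKO array (y axis) against the wild-type array (x axis) for the 908 members measured on both, in log2 units, with the line of equal values and dashed lines at 2-fold. The 16 probes from the first 10 Mb of chromosome 14 (red) all lie below the lower dashed line at both low and high levels, while the pseudogenes (blue) follow the line of equal values.

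The share of members past 2-fold varied with brightness. Between -4 and -2 in mean level 9.22% of 347 members were past 2-fold and 10.8% of named probes, and between -2 and 0 the shares were 7.55% and 11.5%. Between 0 and 2 the order turned, with 11.6% of 95 members and 6.20% of named probes. Of the 11 members behind this share 5 lay in the first 10 Mb of chromosome 14, and without that region, which was singled out after its values had been seen, 6 of 90 (6.67%) passed 2-fold. At a mean level of 4 or more 0 of 156 members passed 2-fold, against 1.95% of 2721 named probes. A one-sided limit of 3 counts over 156, which treats probes as independent, allows a share of up to 1.92%. It lies too near 1.95% to tell the members from the named probes at these levels. The SD of the differences there was 0.18 for members and 0.34 for named probes. Of these 156 bright members 79 are now listed as pseudogenes, 53 were unmatched and 24 shared at least 25 bases with a named probe. Without members that share bases with a named probe, 0 of 132 passed 2-fold.

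**Figure D4:**
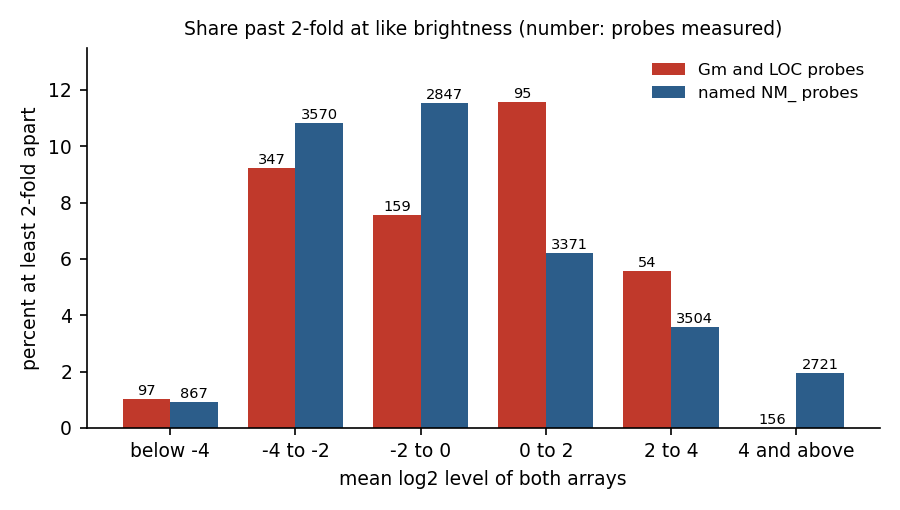
Percentage of probes at least 2-fold apart between the arrays (y axis, from 0) in bins of mean log2 level (x axis) for members and named NM_ probes, with the number of probes measured above each bar. In the brightest bin none of 156 members passed 2-fold, against 1.95% of the 2721 named probes.

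The largest block of lower members lay at the proximal end of chromosome 14. This region was singled out after its values had been seen, so its counts are a description. It held 21 member probes of 16 names between positions 3196624 and 8156787, and 16 probes of 12 names were measured on both arrays. In the array labelled Nr4a-TKO all 16 were lower by at least 2-fold, from 2.01-fold to 4.40-fold with a median of 3.23-fold, against 3.07% of all probes that were lower by this size. Of the others 3 were above background in wild-type alone and 2 on neither array. With normexp background correction all 16 were still below 0, but 10 were past 2-fold, and the median moved from -1.69 to -1.15.

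LOC101055889, an uncharacterized record, stood at 1.31 in wild-type and -0.83 in the array labelled Nr4a-TKO, 4.40-fold lower. Gm16525, which the current table names Gm3715 and lists as a pseudogene, stood at 2.41 and 0.33, 4.24-fold lower. LOC545005 stood at 3.24 and 1.42, Gm10406 at 1.88 and 0.01, and Gm3696 at -2.05 and -3.88. Bright and dim probes alike were lower. Gm5796 was lower at 3 of 3 probes, with differences of -1.94, -1.71 and -1.52, and Gm5797 at 2 of 2, with -1.95 and -1.67. The differences of Gm3317 were -1.36 and -1.01, and those of Gm3264, Gm3187 and Gm3099 were -1.28, -1.14 and -1.39. Gm10413 differed by -1.09 at its measured probe.

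The probes printed first belong to this block. The Gm5796 probe stood at -1.40 and -2.92, Gm3264 at -1.69 and -2.97 and Gm3317 at -1.44 and -2.80. Their values lay within 0.29 of each other on each array. Of the 210 pairs of member probes in the region, 13 shared an exact run of 12 or more bases and 3 one of 25 or more. Most of the lower probes had no long exact run in common. A single differing base ends such a run, and whether these probes bind RNA of the same copies was not tested.

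Gm5458, placed by the array beyond 20 Mb, gave mixed values. At its brightest probe it stood at 1.003 and -1.02, 4.06-fold lower, and at another probe at -1.71 and -3.52. At the probe printed above it stood at -3.71 and -3.76. That probe lay near the background of both arrays, where the lowest wild-type level called detected was -4.89. Some block probes counted as lower were as dim in the array labelled Nr4a-TKO, such as Gm3099 at -4.21 and Gm10413 at -4.05.

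Genes near the block did not all follow it. No named NM_ probe lay inside the members' span; the 13 of the region started at 8783704, and the 11 measured differed by -0.57 to 0.51. Inside the span 32 other probes, most with Rik, NR_ or no gene names, included 23 measured, of which 9 were at least 2-fold lower, 13 within 1.5-fold and 0 at least 2-fold higher. A probe for Esd, a named gene with a record outside the NM_ set, stood there at 4.95 and 5.04. Of 70 windows of 10 Mb with at least 5 measured members, 45 held none past 2-fold, 19 held 1, 4 held 2 and 2 held 3 or more.

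**Figure D5:**
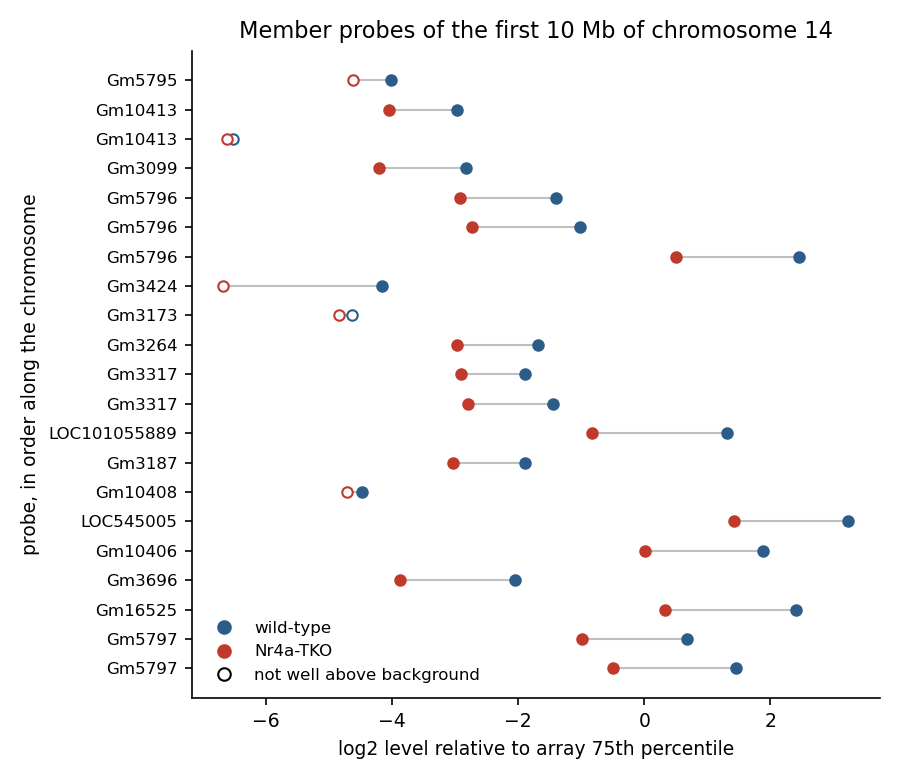
Level of the 21 member probes from the first 10 Mb of chromosome 14 (y axis, in order along the chromosome) on the wild-type (blue) and Nr4a-TKO (red) arrays, as log2 signal less the array's 75th percentile (x axis); open circles mark values not well above background. For all 21 probes the Nr4a-TKO value lies to the left of the wild-type value.

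The other window with several members past 2-fold lay on chromosome 4 between 140 and 150 Mb and was also picked after its values were seen. Of its 17 measured members 4 were past 2-fold upward and 1 downward, and several carry zinc finger names in the current table. Gm13212 stood at 0.77 in wild-type and 2.10 in the array labelled Nr4a-TKO. Gm13247, now Zfp981, was higher at 2 probes, by 1.04 and 1.13. Gm13157, now Zfp984, differed by 1.19 and 0.47, and Gm13154, now Zfp985, by 0.74.

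Gm13251, now Zfp992, went the other way at 1 probe, from -0.46 to -1.77, while its brighter probe stood at 0.82 and 0.68. Of 4 measured probes of other genes with Zfp names in the window, 1 for Zfp933 was lower by 1.15 and the rest lay between -0.15 and 0.45. The genes with Zfp names in the window thus lay on both sides of 0. Rex2, the nearest named gene of Gm13251 and Gm13247, is not among these names. It stood at -3.79 and -1.42, a difference of 2.37.

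Outside these regions the lower members were scattered. LOC101056168, an uncharacterized record on chromosome 4, stood at -0.40 in wild-type and -3.01 in the array labelled Nr4a-TKO, a 6.13-fold difference that normexp reduced to 4.02-fold. Gm4470, a noncoding RNA on chromosome 19, was bright and stood at 4.33 and 2.38, 3.85-fold lower. Gm14085 is now Slc28a2b, from the family of concentrative nucleoside transporters. It stood at 1.65 and -0.25 at one probe and at 1.56 and -1.14 at the other, differences of -1.90 and -2.70, the latter being the largest negative one of any measured member. Slc28a2, a transporter of the same family on chromosome 2, stood at 3.28 and 2.28, a difference of -1.01, at a probe that shares the 27-base run printed above. All 3 probes were lower, and the Gm14085 probe with the shared run differed by the most.

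Of the higher members, Gm5077, Gm7810, Gm10387, Gm11033 and Gm22 were dim on the wild-type array. By the mean level of both arrays the higher and the lower members overlapped. Between -4 and -2 in mean level lay 11 of the 20 higher and 21 of the 39 lower members. Between 0 and 2 lay 3 higher and 8 lower ones, and between 2 and 4 lay 0 and 3. Gm5077, now C1s2, a relative of the complement protease C1s, stood at -4.52 and -2.44, 4.21-fold higher, and C1s itself at -3.35 and -2.32. Gm7810, Gm10387 and Gm11033 stood between -4.48 and -4.40 in wild-type and between -2.50 and -2.48 in the other, and were 3.95-fold, 3.79-fold and 3.76-fold higher. With normexp these 3 differed by 2.08-fold, 2.05-fold and 1.99-fold. Gm22, now Zfp469, started lowest, at -4.72, and its 3.30-fold difference became 1.76-fold with normexp.

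Gm5486, a noncoding RNA on chromosome 16, stood at -2.41 and -0.66, 3.38-fold higher, while its other probes were dimmer, 1 above background in the array labelled Nr4a-TKO alone and 1 on neither array. Gm9975 was 2.91-fold higher and Gm8909, a protein-coding gene of chromosome 17, 2.81-fold, from -2.004 to -0.52. With normexp Gm8909 was 2.31-fold higher.

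Several probes of 1 name did not always give 1 value. Over 89 names with several probes measured on both arrays the median gap between the highest and lowest difference was 0.19 and its 95th percentile 1.18, against 0.16 and 0.92 for 3355 named genes. In 6 names the gap was above 1. LOC101055823, described as like hippocalcin-like protein 1, held the largest positive difference of any measured member at 1 probe, from -1.93 to 0.93, and stood at 0.70 and 0.75 at the other. Hpcal1 itself was higher by 0.37 and 0.39. Gm14151 was higher by 2.39 at 1 probe and by 0.03 at the other. Both names were chosen after their values were seen.

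Members seen on 1 array only gave lower bounds. They numbered 175. By the bound 20 (11.4%) were higher by 2-fold or more, against 9.49% of all such probes and 13.8% of named ones, and 15 (8.57%) were lower by as much, against 8.42% and 9.55%. The bound sets the bright array against the higher of the dim array's lowest level above background and the probe's own level. Among those lower, Gm13109, now Pramel16 of a large family of leucine-rich repeat genes, was at least 6.52-fold lower. Gm4955, now Ifi206, and Gm14446, now Ifit1bl1, both of interferon-induced families, were at least 5.61-fold and 4.98-fold lower. The named relatives Ifit1 and Ifit3, near Gm14446 on chromosome 19, differed by -1.20 and -2.66, while Isg15 differed by 1.46, so interferon-induced genes lay on both sides of 0. Gm5958 was at least 4.45-fold lower. Among those higher, Gm10848 was at least 7.82-fold, Gm10265 at least 5.90-fold, LOC100036540 at least 5.86-fold and LOC101056032 at least 5.66-fold higher.

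Some members have since been named. In all, 248 member probes of 182 names now carry a plain gene symbol, and 124 were measured on both arrays, with a median difference of 0.08. At least 2-fold higher were 6 and lower 3, or 7.26%, near the 6.05% of all probes past 2-fold in either direction. The brightest besides those already described were Gm6251, now the ribosomal protein copy Rpl32l, at 8.34 and 8.50, and Gm10094, now Sap18b, at 5.84 and 6.02. Gm8994 (Eif4a3l1), Gm3258 (Supt4b), Gm14378 (Tgfbr3l) and Gm2382 (Mthfsl) differed by at most 0.08 either way at their brightest probe. A second Gm3258 probe differed by -0.15, and a second Gm2382 probe, at -2.56 in wild-type, was not well above background in the array labelled Nr4a-TKO. Gm561, now Smim26, was higher by 0.49, and Gm16515, now Natd1, lower by 0.48. The 4 probes of Gm15800, now Hectd4, differed by -0.55 to -0.36.

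Each member was also set beside the nearest named NM_ probe on its chromosome. Within 1 kb and on the same strand Pearson's r between member and nearest named probe was 0.75 over 18 pairs, and on opposite strands -0.11 over 13. From 1 to 10 kb the values were 0.38 over 44 pairs and 0.19 over 75, and beyond 100 kb 0.10 over 87 and 0.12 over 91. These are descriptions across probes of the same 2 arrays, and pairs on the same strand within 1 kb may belong to 1 transcript. Of 47 member probes past 2-fold with a measured neighbour, the neighbour was past 2-fold the same way in 5 and the other way in 2. Over all measured named probes 6.57% were past 2-fold in either direction. The 5 are not independent. They include 2 Gm14085 probes set beside the same Slc28a2 probe and 2 Gm13247 probes set beside the same Rex2 probe. The pairs with both past 2-fold lay 52861 to 229108 bases apart. At Gm4673, whose probe overlaps that of Lsr on the opposite strand, the member differed by -0.25 and Lsr, a lipoprotein receptor, by 1.61.

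The 2-fold size fell within a continuous range of differences. Just inside it were Gm568 at -1.03, Gm3317 at -1.01, LOC101055715 at 1.03 and Gm13247 at 1.04. Just outside were Gm2590 at -0.96, Gm13023, now Pramel25, at -0.94, Gm7265, which the table now names Nedd4, at 0.96 and LOC101056555 at 0.97. The scanner error of these 8 differences lay between 0.20 and 0.37, so the values on the 2 sides cannot be told apart.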

How the data were processed

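Per the file headers, the authors' deposited intensity values were processed signals of Feature Extraction 10.10.1.1, background-subtracted and detrended, with mm9 coordinates. Their second deposited table of log2 values differed from the log2 processed signals by a fixed amount on each array (SD 0.00029), and its rule stays unknown; it served as an alternative. Its column medians were -3.54 and -3.53. Each array held 62976 spots, 3671 of them controls; controls and 156 (wild-type) and 117 (Nr4a-TKO) flagged spots were removed. Levels are log2 signals less the array's 75th percentile. Detection was the scanner's well-above-background call, a yes or no score per spot, per the file headers. Both arrays lay on 1 slide with 1 scan time. Names were updated through a RefSeq table by accession (461 probes), gene ID (55), symbol (494) or synonym (61), for names only.

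Named members were the 8 brightest, the 8 largest differences and 4 largest bounds per direction, up to 12 renamed and up to 4 per description class. In these lists a name was represented by its brightest probe. The largest differences left out names with measured probes of opposite direction. The largest bounds left out names with any probe detected on the dim array. Neighbour pairs and probes next to 2-fold were also named, and others were chosen after their values were seen. The members and lists were chosen with earlier results of these data known. With 1 array per genotype no test was made, and the number of arrays limits the precision. The counting step was tested on simulated data. Python 3.11.15, numpy 2.4.6, pandas 2.3.3, scipy 1.17.1, matplotlib 3.10.9, R 4.3.3 and limma 3.58.1 were used. Alternatives were other background corrections, scalings, filters, fold sizes and memberships.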

Additional observations from a re-analysis of the deposited data

How the results depend on the processing

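Results below are for the counts and medians of all members. Counts at least 2-fold higher and lower were 20 and 39; they were 11 and 19 with normexp (named probes 437 and 284), 111 and 119 with no filter on dim probes, and 10 and 15 with a stricter filter. At 1.5-fold they were 72 and 74, and at 3-fold 8 and 18. Centring on the spike-ins gave 11 higher, and 56 lower. Leaving out the first 10 Mb of chromosome 14, chosen after seeing the data, gave 23 lower. The median difference of 0.08 was 0.0112 with quantile normalization, 0.0327 with scaling on probes well above background, 0.124 with no filter or the stricter filter, and -0.19 when centred on spike-ins, which shifted the median of all probes by -0.27. Of the 16 chromosome 14 probes, 10 were past 2-fold with normexp, 9 were past 3-fold, and all 7 that passed the stricter filter were past 2-fold. Detection by the more lenient significance call was 84.1% in wild-type and 83.8% in the array labelled Nr4a-TKO, against 89.5% and 89.1% of named probes. Other settings, among them the array median, the deposited log2 table, 1 probe per name, X and Y probes and NR_ records, kept these results within 1.5 times or within their interval. Of 28 single probes that lead the differences or lie in that region, none turned sign, and 19 stayed past 2-fold with normexp. All 28 were past 2-fold at the main setting, so a scaling shift of 0.27 could not turn their sign. By more than their scanner error 18 of the 28 moved with normexp and 21 when centred on spike-ins. Sharing a run of 20 bases with a named probe would take 120 members, and 30 bases 31. No paired analysis was possible because each genotype has 1 array. Both arrays lay on 1 slide, so there was no slide block to fit. Signal over background limits the dim members, since 268 and 273 of them had surrogate values for signals at background.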
